A study of Homo sapiens with 12 samples.

Results

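Nucleotides C138 to G349 of SLERT, a human long noncoding RNA, form the 5′ side of the stretch between its 2 snoRNA ends. They were taken by their nucleotide number in the deposited tables, 212 of 694 nucleotides. The RefSeq gene table (GRCh38.p14) lists the snoRNAs SNORA5C and SNORA5A with lengths of 137 and 134 bases. These lengths place SNORA5C at nucleotides 1 to 137 and SNORA5A at 561 to 694 of SLERT, and leave 350 to 560 as the 3′ side of the middle. A148 and G239 mutated at high rates in every library and are described apart, so most counts below are over 210 nucleotides.

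The study probed SLERT by SHAPE-MaP in the human cell line PA1, established from an ovarian teratocarcinoma, with no other allele or agent named in the labels. There were 3 conditions with 2 libraries each. For the NAI libraries, living cells were incubated at 37 °C with NAI, given in DMSO to 200 mM, over 10 minutes. In the DMSO libraries, cells received the solvent alone. The third condition, a denatured control (DC), used formamide at 95 °C, and the labels do not say if it also received NAI. All 6 libraries shared reverse transcription by SuperScript II in 6 mM manganese with primers specific to SLERT, nested PCR and Illumina sequencing. The labels do not say if the 2 libraries of a condition are from separate cultures, and each p-value below measures only the spread between these libraries.

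SLERT is made from an intron of TBRG4 and carries a snoRNA of the box H/ACA class at both ends, and these protect it from exonucleases. It is known for acting in the nucleolus on RNA polymerase I transcription through the helicase DDX21. In SHAPE-MaP, NAI attaches to the ribose 2′-hydroxyl of nucleotides that can move freely, and the reverse transcriptase makes an error when it passes the adduct. A paired or otherwise held nucleotide reacts little, the DMSO library gives the background of errors, and the denatured library gives the rate when structure is lost.

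The sequence of the region is shown so that the positions below can be read against it. Capitals mark the nucleotides whose normalised reactivity was over 0.85 in both replicates. The normalised reactivity is the authors' score, the excess of the NAI over the DMSO rate as a part of the DC rate, scaled by 1 constant per replicate.
nucleotides C138 to G349: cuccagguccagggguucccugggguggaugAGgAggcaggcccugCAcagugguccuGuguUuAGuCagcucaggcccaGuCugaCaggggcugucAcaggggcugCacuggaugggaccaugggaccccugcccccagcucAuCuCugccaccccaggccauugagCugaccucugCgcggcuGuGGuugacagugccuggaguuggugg
Of its bases, 64.6% were G or C, against 60.4% in the whole of SLERT. G was the most frequent base (34.9%), followed by C (29.7%), U (20.8%) and A (14.6%). The 23 capitals lie singly or in pairs and leave long runs of lower case, the longest of them around nucleotides 246 to 280.

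Read depth was not even along the region, and 2 stretches of 20 nucleotides need both of their values. Median effective depth over the 210 nucleotides in replicates 1 and 2 was 902742 and 165170 reads with NAI, 683219 and 177088 reads with DMSO and 939270 and 212995 reads in DC. Between nucleotides 211 and 212 the read depth rose 1.30-fold to 1.87-fold, and between 271 and 274 it fell 2.13-fold to 4.39-fold, in all 6 libraries. The size of the fall differed by condition. At nucleotide 275 the depth was 28.0% and 22.7% of that over 252 to 271 with NAI, 30.9% and 32.0% with DMSO and 42.7% and 46.7% after denaturation. At nucleotide 205 it was 70.9% and 76.6% of that over 212 to 231 with NAI, 68.0% and 67.3% with DMSO and 56.9% and 53.4% after denaturation. The stretches next to the steps read as follows.
212 to 231: ggcccagucugacaggggcu
252 to 271: ugggaccaugggaccccugc
The length of 20 nucleotides beside each step was chosen, not read from the depth. The low-rate stretches at both ends of SLERT are also 20 nucleotides each, a match that follows from this choice. Nested PCR used primers specific to SLERT, at positions that these sources do not give, and whether reads that stop at these steps carry primer bases was not tested. Results that turn on the 40 nucleotides are therefore given a second time, with their mutations divided by the depth of the reads that run past the step, taken at nucleotides 205 and 275 and called the outer depth below. This choice was made after seeing the data.

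**Figure D1:**
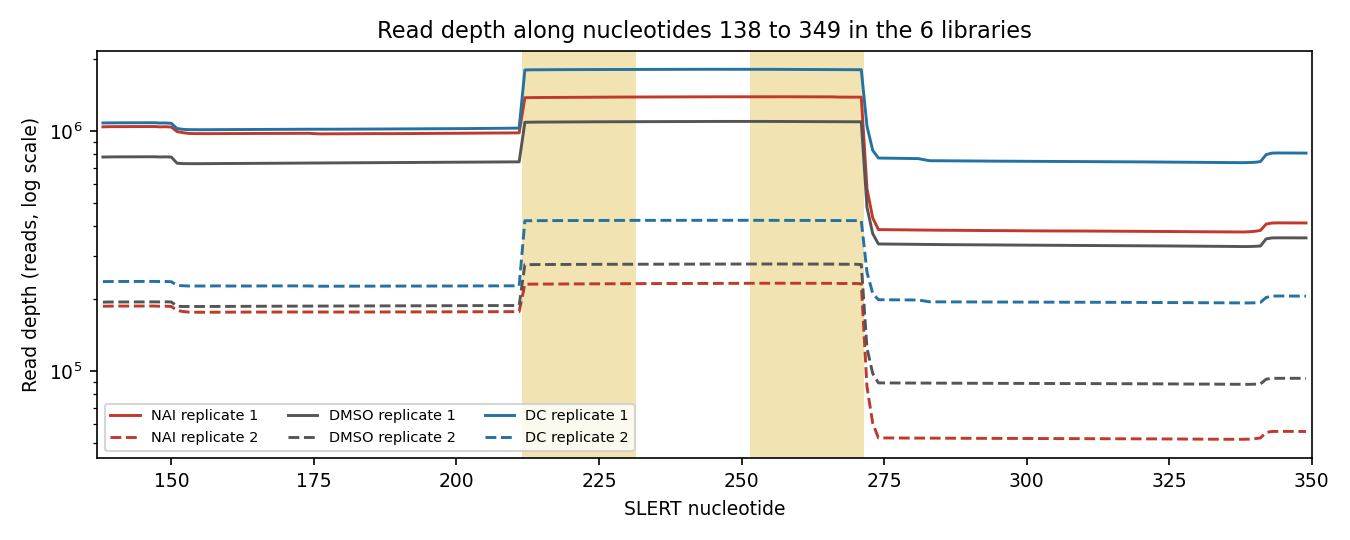
Read depth (reads, log scale) against SLERT nucleotide for the 3 conditions, NAI in red, DMSO in grey and DC in blue; solid lines are replicate 1 and dashed lines replicate 2. All 6 lines rise at nucleotide 212 and fall after 271, and the shaded bands are the 2 stretches of 20 nucleotides beside these steps.

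NAI raised the mutation rate of the region by about the same factor in both replicates. Summed over the 210 nucleotides, the rate was 0.720% and 0.708% with NAI, 0.555% and 0.543% with DMSO and 0.725% and 0.712% in DC. All NAI and DC libraries lay above both DMSO libraries, and the NAI and DC libraries lay among each other. The means were 0.714% ± 0.0083 (SD, n = 2) with NAI, 0.549% ± 0.0082 (SD, n = 2) with DMSO and 0.718% ± 0.0096 (SD, n = 2) in DC. The ratio of NAI to DMSO was 1.30 in each replicate and that of DC to DMSO was 1.31 in each. In the 3′ side the NAI rate was higher, 0.993% and 1.05%, as was the DMSO rate, 0.746% and 0.728%.

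NAI mutated 90 of the 210 nucleotides more often than DMSO and 6 less often, by edgeR's quasi-likelihood test with Benjamini-Hochberg adjustment over all 693 nucleotides tested and an adjusted p under 0.05. Across SLERT the test called 44.9% higher and 3.32% lower, so the 42.9% higher here is near that of the whole RNA. In the 3′ side, 126 of 211 nucleotides were higher, 59.7%. These calls compare rates, with effective depth as the only scaling. TMM scaling, which sets the typical nucleotide near no change, moved the median log2 change of all nucleotides by -0.34 for NAI over DMSO and by -0.36 for DC over DMSO. Under it the split in the region became 45 higher and 79 lower. Without TMM scaling, the outer depth gave 89 higher and 3 lower.

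**Figure D2:**
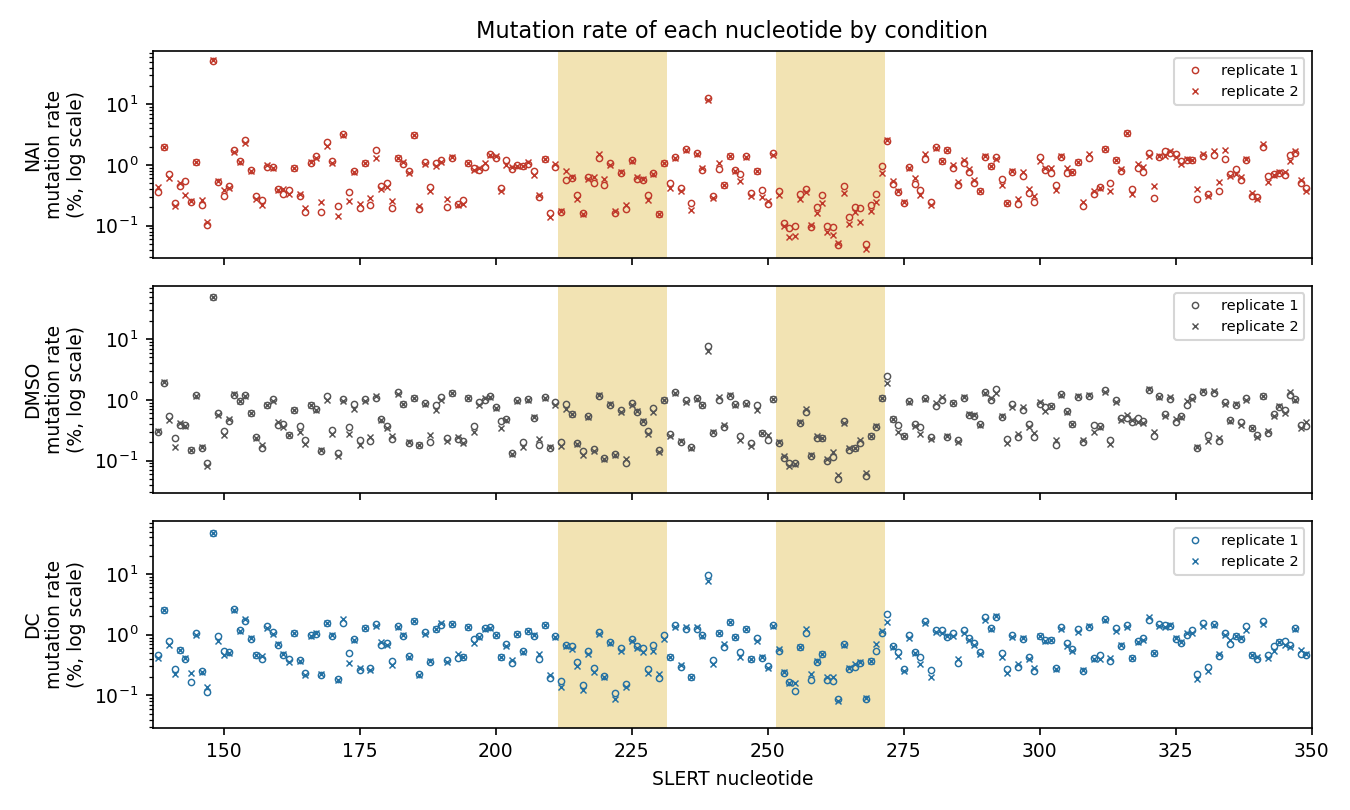
Mutation rate of each nucleotide (%, log scale) against SLERT nucleotide, in 1 panel per condition, with circles for replicate 1 and crosses for replicate 2. A148 and G239 stand above all others in each panel, the 2 replicates lie close together, and rates are low in the second shaded band (252 to 271) in every condition.

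Normalised reactivity was low over most of the region. Its median was 0.139 and 0.194 in replicates 1 and 2, against 0.189 and 0.210 in the whole of SLERT and 0.313 and 0.349 in the 3′ side. A value over 0.85 is commonly read as highly reactive and one under 0.4 as weakly reactive. Here 23 nucleotides, 10.95%, were over 0.85 in both replicates, where the share in all of SLERT was 14.9%. Under 0.4 in both replicates were 137, 65.2%, where the share in SLERT was 61.1%. The remaining 50 lay between the limits or on different sides of them, and 32 of the 137 were below 0 in both replicates. Across the 210 nucleotides the replicates had a Pearson correlation of 0.893 and a Spearman correlation of 0.781, a description over points that share libraries and base context. With the outer depth, 22 nucleotides were over 0.85.

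**Figure D3:**
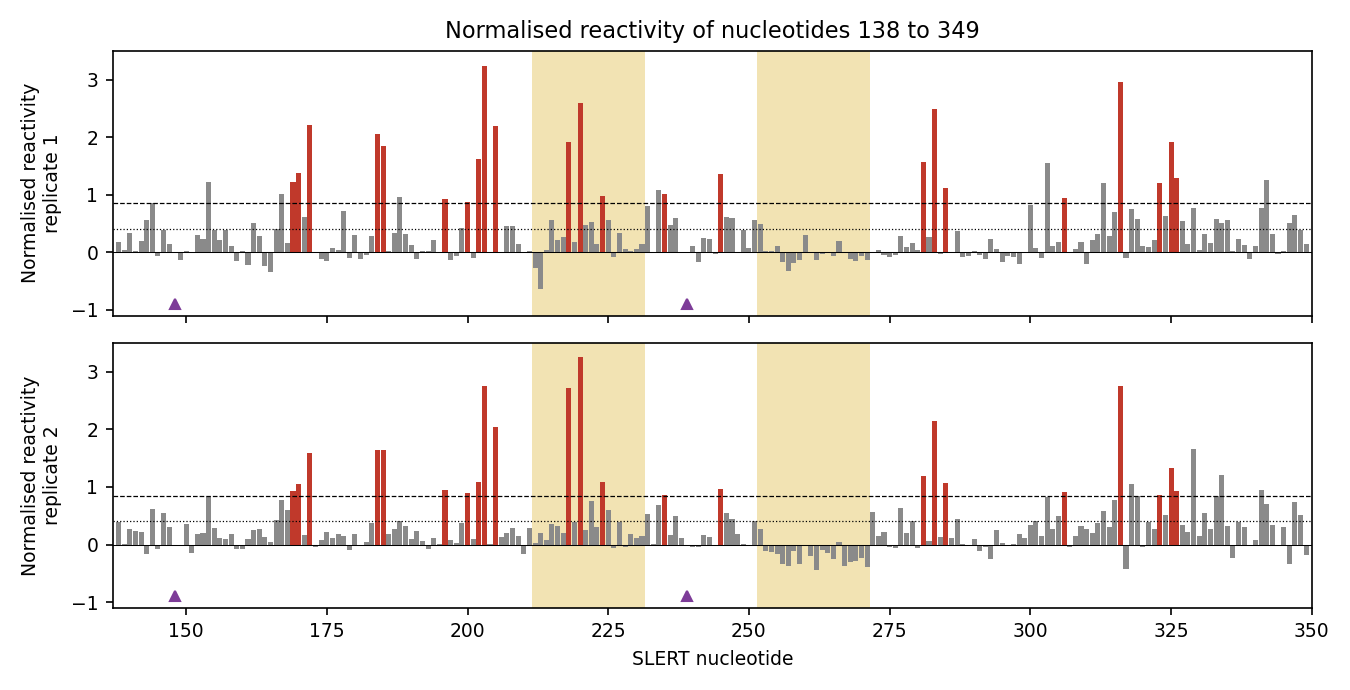
Normalised reactivity (a score without unit) against SLERT nucleotide, replicate 1 above and replicate 2 below; red bars are the 23 nucleotides over 0.85 in both replicates, the dashed and dotted lines are 0.85 and 0.4, and triangles mark A148 and G239, which have no value. The same tall bars stand in both panels, and the second shaded band (252 to 271) holds none.

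The most reactive nucleotide was G203, with normalised reactivities of 3.24 and 2.75. Its mutation rate was 0.851% and 0.915% with NAI, 0.135% and 0.127% with DMSO and 0.336% and 0.382% in DC, so the 3 conditions did not overlap. The change from DMSO to NAI was 6.72-fold (log2 2.75 ± 0.12 SE, n = 2 per group, edgeR adjusted p = 3.8e-11). G203 ranked 15 by mean reactivity among the nucleotides of SLERT, so the strongest signals of the RNA lie outside this region. All 23 reactive nucleotides were called higher with NAI than DMSO, which their definition favours.

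C316 had the highest NAI rate among these 23, 3.34% and 3.39%, against 0.502% and 0.568% with DMSO and 1.46% and 1.36% in DC. Its normalised reactivities were 2.95 and 2.75, close together in the 2 replicates (log2 change 2.66 ± 0.09 SE, edgeR adjusted p = 2.1e-12). C283 rose by the largest factor, 7.07-fold, from 0.248% and 0.251% with DMSO to 1.75% and 1.78% with NAI (log2 2.82 ± 0.11 SE, edgeR adjusted p = 1.0e-11). C205 had reactivities of 2.19 and 2.04, with 0.964% and 0.979% mutated with NAI and 0.199% and 0.169% with DMSO. In each of these cytidines the DC rate lay between the DMSO and NAI rates.

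Adjacent reactive nucleotides occurred at 4 places. C184 (2.05 and 1.64) and A185 (1.84 and 1.64) had like scores, although their NAI rates differed, 0.796% and 0.730% at C184 against 3.14% and 3.16% at A185. The other rates differed in the same direction, with 0.198% and 0.200% in DMSO at C184 against 1.09% and 1.07% at A185, and 0.444% and 0.429% in DC at C184 against 1.70% and 1.69% at A185. A169 and G170 had 1.22 and 0.93 and 1.37 and 1.05, with A172 at 2.21 and 1.60 beyond a G171 that was split (0.61 and 0.16). A202, next to G203, had 1.62 and 1.09. G325 and G326 had 1.92 and 1.34 and 1.29 and 0.92, in each case with the higher score in replicate 1. Of the 23, 8 had a reactive neighbour and 6 lay between neighbours that were under 0.4 in both replicates. The other nucleotides among the 15 most reactive were A281, G329 and G303, and of these G329 (0.77 and 1.66) and G303 (1.54 and 0.83) were over 0.85 in only 1 replicate.

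G218 and C220 lie in the first stretch beside a depth step, and their scores depend on it. As deposited they were 1.91 and 2.72 at G218 and 2.59 and 3.25 at C220, which made C220 the second highest of the region. With the outer depth they became 1.503 and 1.82 at G218 and 2.05 and 2.20 at C220. Both stayed over 0.85 and above DMSO (edgeR log2 2.16 ± 0.12 SE, adjusted p = 1.2e-09 at C220 and 1.79 ± 0.11 SE, adjusted p = 3.6e-09 at G218). C224, at 0.98 and 1.09 as deposited, became 0.76 and 0.66 and left the class over 0.85.

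In the fold described at the end, 3 hairpins close within the region. They are shown with their loops in capitals, to set the loops beside the reactive nucleotides. The loops make up 22 of the 210 nucleotides and hold 7 of the 23 reactive ones, or 6 with the outer depth. The same reactivities directed this fold, and none of the 13 stem pairs is in the fold of the whole of SLERT from its sequence alone. When C138 to G349 was folded alone from its sequence, all 5 pairs of the stem at 320 to 334 were present. Of the 5 at 212 to 231, 0 were.
212 to 231: ggcccAGUCUGACAGgggcu
275 to 287: cagCUCAUCUcug
320 to 334: gcuguGGUUGacagu
In the loop of the first, 217 to 226, reactive and unreactive nucleotides stood side by side: between G218 and C220, U219 had 0.18 and 0.40, and 0.09 and 0.13 with the outer depth. The second hairpin, with a loop at 278 to 284 and a stem of 3 pairs, had the sharpest alternation. From A281 onwards, A281 (1.57 and 1.19), C283 (2.49 and 2.15) and C285 (1.12 and 1.07) were reactive, and the uridines between and after them were not, with U282 at 0.26 and 0.06, U284 at -0.03 and 0.13 and U286 at -0.02 and 0.11. These uridines mutated at 0.879% to 1.19% with NAI and at 0.901% to 1.11% with DMSO, so their low scores come from rates that NAI hardly moved. C285 and U286 lie outside the loop, in the 3′ strand of the stem. The fold pairs the reactive C285 with G277, the pair that closes the loop. In the third hairpin, G325 and G326 opened the loop of 325 to 329, and U327 (0.54 and 0.33) and U328 (0.14 and 0.21) followed lower. The last loop nucleotide, G329, was higher again (0.77 and 1.66). G323 in the 5′ strand of the stem was over the limit (1.20 and 0.85).

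Runs of at least 8 nucleotides under 0.4 in both replicates, called protected here, were 253 to 271 (19 nucleotides) and 288 to 299 (12 nucleotides). Together they cover 14.6% of the region, and in SLERT 13 such runs cover 22.8%. The run 288 to 299 lies away from the depth steps and was the only one left with the outer depth.
288 to 299: ccaccccaggcc
Its summed mutation rate was 0.630% and 0.649% with NAI, 0.660% and 0.647% with DMSO and 0.837% and 0.804% in DC. NAI and DMSO overlapped there, while both DC libraries were higher, by 1.27 and 1.24 times over DMSO. Reactivities in it ran from -0.20 to 0.23 in replicate 1 and from -0.25 to 0.25 in replicate 2. None of its 12 nucleotides was called in either direction between NAI and DMSO, where the test called 44.9% of SLERT higher and 3.32% lower. In DC, 5 of the 12 were called higher than in DMSO, against 61.8% of SLERT. The ratio of DC to DMSO over the whole region was 1.31 in each replicate, so the rise in DC is not particular to this run. From replicate 2 alone, 5 protected runs were found, at 155 to 165, 173 to 183, 206 to 217, 252 to 271 and 288 to 300.

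The run 253 to 271 is the one that the fall in depth touches.
253 to 271: gggaccaugggaccccugc
As deposited, its summed rate was 0.211% and 0.165% with NAI, 0.231% and 0.241% with DMSO and 0.369% and 0.403% in DC, low in every condition. Median reactivity was -0.06 and -0.23. Over 252 to 271, the NAI rate was 0.955 and 0.724 times the DMSO rate, and the NAI share of depth that runs on past 271 was 0.906 and 0.710 times the DMSO share. The DC rate was 1.64 and 1.72 times the DMSO rate, where the corresponding ratio of depth shares was 1.38 and 1.46. With the outer depth the rates over 252 to 271 were 0.783% and 0.763% with NAI, 0.743% and 0.747% with DMSO and 0.883% and 0.882% in DC, in the range of the rest of the region. NAI was then 1.05 and 1.02 times DMSO, and the median reactivity of the 20 nucleotides was 0.06 and -0.01. With the outer depth U252 rose from 0.49 and 0.27 to 0.83 and 0.83, U260 had 0.56 and 0.38 and C266 had 0.42 and 0.47, which broke the run, while the median stayed near 0.

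The 6 nucleotides lower with NAI than DMSO all lay in this run: C257, G262, A256, A259, U269 and C271. C257 had the largest fall, from 0.636% and 0.706% with DMSO to 0.40% and 0.356% with NAI, with 1.08% and 1.253% in DC (log2 change -0.81 ± 0.09 SE, edgeR adjusted p = 1.7e-06). With the outer depth C257 was still lower with NAI (log2 -0.51 ± 0.08 SE, edgeR adjusted p = 3.7e-05) and the other 5 were not called, with log2 changes from -0.02 at C271 to -0.25 at G262. In their place G213 (log2 -0.33 ± 0.11 SE, edgeR adjusted p = 0.023) and G226 (log2 -0.19 ± 0.07 SE, edgeR adjusted p = 0.032) were called lower, both in the first stretch. With the outer depth, G213 fell in replicate 1 only, at 0.789% with NAI against 1.24% with DMSO. In replicate 2 it had 1.06% in both. When the 40 nucleotides were left out, edgeR called no other nucleotide of the region lower, with 0 of 170 at an unadjusted p under 0.05. Among these 170, DESeq2 called 0, with 0 at an unadjusted p under 0.05, and limma called 0, with 1. The 6 became 10 without NAI replicate 1 and 2 without DMSO replicate 2, and without NAI replicate 2 neither A259, C271, G262 nor U269 was called.

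Flexible runs, at least 3 nucleotides at or above 0.4 in both replicates, were few: 245 to 247 and 323 to 326, which cover 3.30% of the region where 20 runs cover 11.4% of SLERT.
245 to 247: cac
323 to 326: gugg
At 245 to 247 the summed rate was 0.815% and 0.728% with NAI and 0.446% and 0.412% with DMSO, and at 323 to 326 it was 1.496% and 1.38% against 0.653% and 0.671%. In both runs the libraries of the 2 conditions did not overlap and every nucleotide was called higher with NAI. From replicate 1 alone there were 6 such runs, with 169 to 172, 220 to 222, 234 to 237 and 333 to 335 in addition.

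DC was higher than DMSO at more nucleotides than NAI was, while its largest rises were smaller. In DC, 134 of the 210 nucleotides were higher than in DMSO and 4 were lower, where edgeR called 61.8% higher and 2.16% lower in SLERT. The median log2 change over the 210 nucleotides was 0.41 for DC over DMSO and 0.21 for NAI over DMSO. The counts were 130 higher and 3 lower with the outer depth. TMM scaling made this 50 higher and 39 lower. The 10 with the largest rise were C283, G170, C205, U252, G203, C316, G323, C157, G196 and C184. C283 led them, with 0.921% and 0.946% in DC against 0.248% and 0.251% in DMSO (3.74-fold, log2 1.90 ± 0.11 SE, edgeR adjusted p = 6.7e-09). C157 is the one of the 10 that was under 0.4 in both replicates (0.39 and 0.10), with rates of 0.242% ± 0.034 (SD, n = 2) with NAI and 0.424% ± 0.036 (SD, n = 2) in DC. The rise of U252 was smaller with the outer depth: DC was 2.82 times DMSO as deposited and 1.98 times DMSO with the outer depth. In the 20 nucleotides from 252 to 271, DC was called higher at 19 as deposited and at 9 with the outer depth. In 212 to 231 the counts were 6 and 11.

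The 4 nucleotides lower in DC than DMSO were G346, A223, U145 and U221. At G346 the rate was 1.44% and 1.18% with NAI, 1.22% and 1.33% with DMSO and 0.669% and 0.625% in DC. Both DC libraries lay far below the other 4, which overlapped (DC over DMSO log2 -0.97 ± 0.11 SE, edgeR adjusted p = 3.5e-06). U145 fell by 0.18 ± 0.07 SE on the log2 scale (edgeR adjusted p = 0.038). A223 and U221, with log2 changes of -0.19 ± 0.08 SE and -0.17 ± 0.07 SE as deposited, lie in 212 to 231 and had 0.10 and 0.12 with the outer depth, neither called, while C271 was then called lower (log2 -0.47 ± 0.08 SE, edgeR adjusted p = 0.00011). Leaving out DMSO replicate 1, DMSO replicate 2 or DC replicate 2 left 1 nucleotide lower in each case, and leaving out NAI replicate 1 or 2 left 8 or 9. DESeq2 and limma each called 2 of the region lower.

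**Figure D4:**
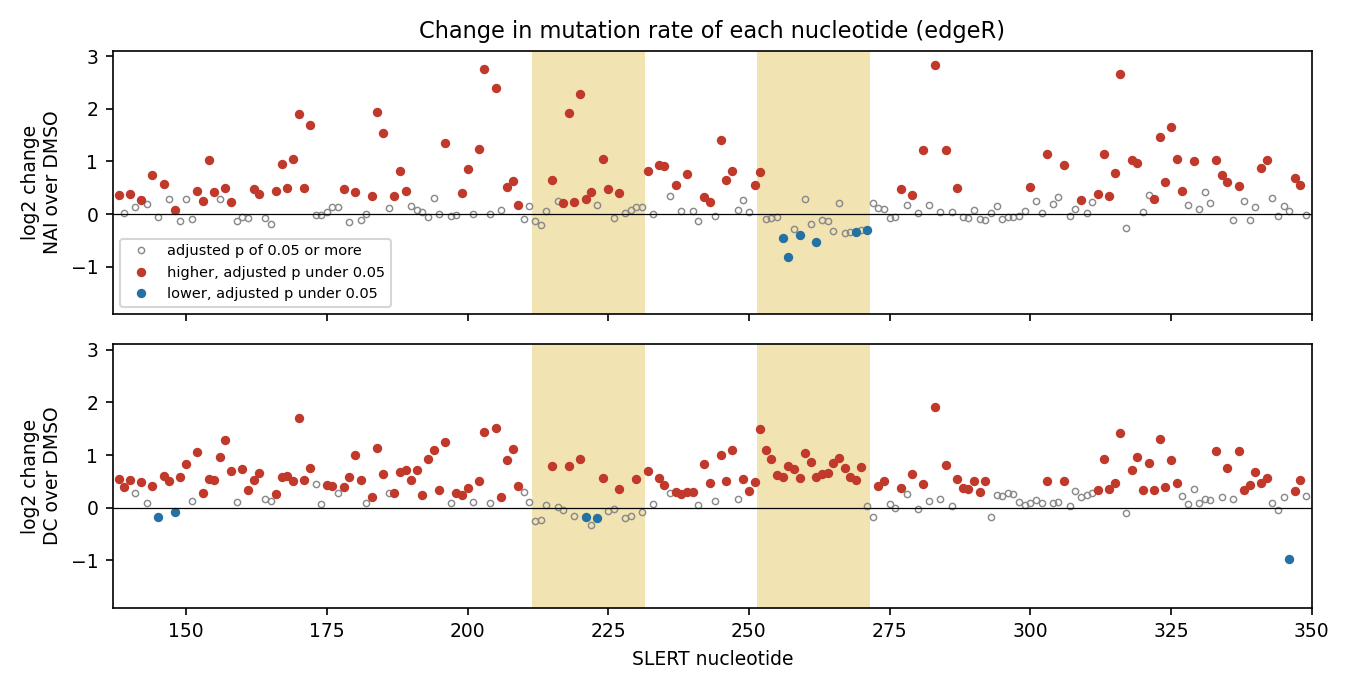
Fitted log2 change in mutation rate against SLERT nucleotide, NAI over DMSO above and DC over DMSO below; filled points passed an edgeR adjusted p of 0.05, red for higher and blue for lower, and open points did not. The high points of the upper panel are few and tall, and the lower panel has a broad layer of rises that reach less high. As deposited, most points of the shaded band at 252 to 271 lie below 0 with NAI, with U252 at 0.81 an exception. In DC the points of this band lie above 0.

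NAI and DC were also compared with each other; both comparisons with DMSO share these libraries, so the values stand side by side and are not independent. NAI was higher than DC at 44 nucleotides and lower at 69, where edgeR called 27% and 31.3% of SLERT, and with the outer depth at 39 and 61. The 8 with the largest excess as deposited were C220, G203, C316, G218, G346, A172, C283 and A185. With the outer depth the log2 excess fell from 1.37 to 0.95 at C220 and from 1.12 to 0.70 at G218, both still called. In 212 to 231, NAI was higher than DC at 11 nucleotides and lower at 1 as deposited. With the outer depth these counts were 3 and 7. At A172 the rate was 3.30% and 3.13% with NAI, 1.05% and 0.942% with DMSO and 1.55% and 1.83% in DC, an NAI rate 1.91 times the DC rate (log2 0.93 ± 0.08 SE, edgeR adjusted p = 1.6e-07). G346 belongs to the 8 through its low DC rate, since NAI and DMSO overlapped there. The 8 with the largest deficit, C257, G253, C265, G262, C267, G270, G261 and A256, all lie in 253 to 271. Over 252 to 271 all 20 nucleotides were lower with NAI than DC as deposited, and 5 were with the outer depth. C257 was among these 5 (log2 -1.61 ± 0.09 SE as deposited, -0.80 ± 0.07 SE and edgeR adjusted p = 5.5e-07 with the outer depth). Outside both stretches 33 nucleotides were higher and 48 lower, of 170.

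A148 was mutated in about every other read whatever the treatment. Its rate was 51.7% and 53.2% with NAI, 50.1% and 49.4% with DMSO and 46.6% and 47.4% in DC. The conditions did not overlap, but the differences were small beside the level. NAI over DMSO was called at 0.08 ± 0.03 SE on the log2 scale (edgeR adjusted p = 0.038) and DC over DMSO at -0.08 ± 0.03 SE (edgeR adjusted p = 0.020). Neither was called by DESeq2. The first call was lost when any library other than NAI replicate 1 was left out, and TMM scaling turned it to -0.29. The second was lost without DMSO replicate 1, DMSO replicate 2 or DC replicate 1. G239 mutated at 12.7% and 11.6% with NAI, 7.80% and 6.46% with DMSO and 9.64% and 7.81% in DC. NAI lay above DMSO in every library (1.70-fold, log2 0.77 ± 0.09 SE, edgeR adjusted p = 2.5e-06). DC was called higher than DMSO, although its lower library hardly exceeded the higher DMSO library (log2 0.29 ± 0.09 SE, edgeR adjusted p = 0.0098), a call lost with DESeq2 and without DMSO replicate 2 or DC replicate 1. Neither nucleotide has a normalised reactivity. Together they held 26.2% to 37.2% of all mutations of the region in each library, and with both kept in, the ratio of DC to DMSO was 1.138 and that of NAI to DMSO 1.28.

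The 4 bases differed in background and in reactivity. The median DMSO rate was 0.978% at U, 0.931% at A, 0.359% at G and 0.245% at C. Over 0.85 in both replicates were 6 of 30 A, 9 of 63 C, 7 of 73 G and 1 of 44 U. The shares here were 20% of A, 14.3% of C, 9.59% of G and 2.27% of U, and in all of SLERT 15.3% of A, 13.7% of C, 13.6% of G and 14.7% of U. The single U was U200 (0.87 and 0.89). Under 0.4 in both replicates were 32 of the 44 U, 72.7%, where the share of U in SLERT was 50%. NAI was called higher than DMSO at 21 of the 44 U, 47.7%, and at 54% of U in SLERT.

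The region holds exact copies of short sequences, which allow the same letters to be read in 2 places. The longest exact repeat is shown with its copies at 223 to 232 and 235 to 244.
copy at 223: acaggggcug
copy at 235: acaggggcug
The fifth position of the second copy is G239, and that of the first is G227, which mutated at 0.564% and 0.596% with NAI and 0.432% and 0.446% with DMSO. At the outer depth these rates of G227 were 0.797% and 0.780% with NAI and 0.637% and 0.663% with DMSO. The fifth of these 10 letters thus had a far higher background rate in the second copy, whichever depth is used. The first position was reactive in the second copy (A235, 1.01 and 0.85) and not in the first (A223, 0.14 and 0.30 as deposited and 0.05 and 0.06 with the outer depth). The second position was the reverse, with C224 at 0.98 and 1.09 and C236 at 0.47 and 0.16, although C224 dropped to 0.76 and 0.66 with the outer depth. The last position was G232 at 0.81 and 0.54 and G244 at -0.03 and -0.02. A shorter repeat, cagcuca, lies at 205 to 211 and 275 to 281 and was read oppositely at its ends. C205 (2.19 and 2.04) faced C275 (-0.08 and -0.05), and A211 (0.02 and 0.29) faced A281 (1.57 and 1.19).

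A fold of the whole of SLERT was computed with ViennaRNA, with the mean normalised reactivity as a pseudo-energy that disfavours pairs at reactive nucleotides. It paired 149 of the 212 nucleotides, 70.3%, against 61.1% in SLERT. Of the pairs, 71 joined nucleotides of the region to each other and 7 reached outside. The fold is a model from sequence and reactivity, without proteins or tertiary contacts. Folding C138 to G349 alone with the same reactivities returned all 71 pairs, as did replicate 2 alone and the outer depth, and replicate 1 alone returned 61. With pairs limited to 150 nucleotides apart, 35 of the 71 were kept, and the helices at 147, 156 and 320 described next were lost. Folding C138 to G349 alone from its sequence, with no reactivity, kept 13.

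The fold was a long branched arm. It ran from a closing helix of G137 to U145 with G335 to U343 inwards, and the helices shared by the folds of the mean and of each replicate were the following, each given as its 5′ strand and then its 3′ strand to show the bases that pair.
147 to 154: cagggguu
308 to 315: gaccucug
156 to 165: ccuggggugg
288 to 297: ccaccccagg
173 to 178: ggcagg
267 to 272: ccugcc
188 to 195: gugguccu
253 to 260: gggaccau
205 to 210: cagcuc
G239 to G244: gggcug
Stems 212 to 216 with 227 to 231 and 320 to 324 with 330 to 334 were shared too and are those of the hairpins above. The helix of 156 to 165 with 288 to 297 had 10 pairs, 8 of them G to C. Of its 20 nucleotides 19 were under 0.4 in both replicates, its medians were -0.06 and 0.04, and it includes most of the protected run at 288 to 299. The helix of 188 to 195 with 253 to 260 had 15 of 16 nucleotides under 0.4 as deposited, and its 3′ strand lies in the stretch beside the fall in depth. With the outer depth U260 of that strand had 0.56 and 0.38 and was no longer under 0.4 in both replicates.

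The helix of 198 to 204 with 246 to 252 holds G203. It has 1 G to C, 3 A to U and 3 G to U pairs, and U200, A202 and G203 in it were over 0.85. The folds from the mean and from replicate 2 kept its 7 pairs, and that from replicate 1 kept none. C205, also reactive, sat at the end of the next helix. Of the 23 reactive nucleotides 16 were unpaired in the fold, where 63 of the 210 were; this follows in part from the reactivities that directed it. A fold from the sequence alone uses no reactivity. In it the unpaired nucleotides of the region had median reactivities of 0.285 and 0.313 and the paired ones 0.118 and 0.163, and 10 of 54 unpaired and 13 of 156 paired nucleotides were over 0.85. When the region was folded from its sequence without the rest of SLERT, the medians were alike, 0.138 and 0.190 at unpaired and 0.146 and 0.196 at paired nucleotides, and 11 of 68 unpaired and 12 of 142 paired nucleotides were over 0.85. The fold of the whole of SLERT from its sequence alone shared 40 of the 71 pairs, with the helices at 156, 173, 188, 198 and 205 whole. When the reactivities of the 40 nucleotides beside the depth steps were withheld, the directed fold kept 31 of the 71 pairs, and the helices at 173, 188, 198, 205 and 212 were lost.

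**Figure D5:**
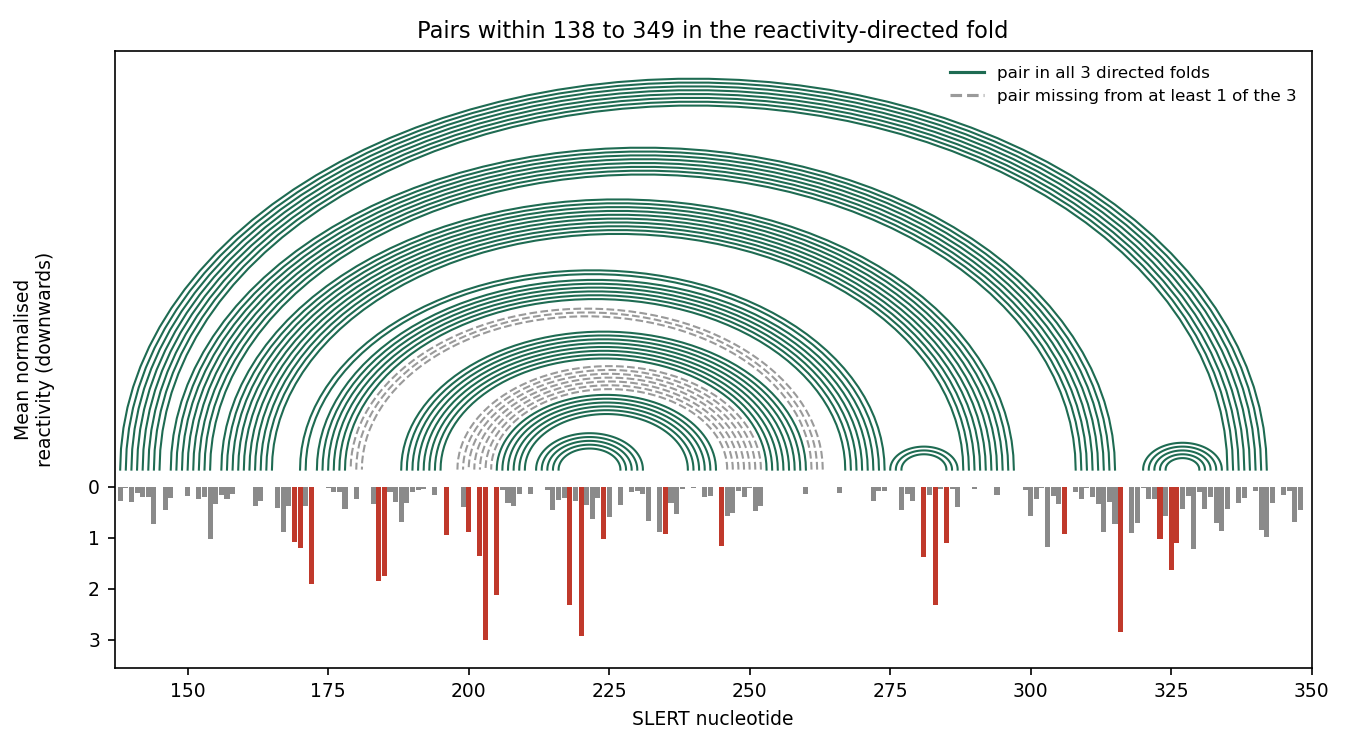
Arcs join nucleotides paired in the directed fold within the region; solid green pairs occur in the folds of the mean and of each replicate, dashed grey pairs do not. Bars below give the mean normalised reactivity (downwards, values below 0 not drawn; red, over 0.85 in both replicates) against SLERT nucleotide. The arcs nest around 2 inner hairpins and the one at 320 to 334, 61 of 71 are solid, and the dashed set near 198 to 204 stands over the tall bar at G203.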

How the data were processed

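Mutation counts, read depths and effective depths were deposited per nucleotide as whole-number counts, and the mutation rate as a fraction, per the file headers. The deposited reactivity and normalised reactivity are scores, and recomputing the first from the deposited rates as (NAI - DMSO)/DC gave the same values to within 0.00054. The submitters' processing notes name bcl2fastq 2.17.1.14; which aligner or mutation counter was used is not given in the sources used here. For each SLERT sample, the treatment text names another condition than its title. Titles set the groups, and the modified, untreated and denatured columns of the tables set the condition of every value.

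Mutation counts were tested with edgeR 4.0.16 (R 4.3.3, quasi-likelihood, log effective depth as offset, no other scaling) in 1 fit of all 6 SLERT libraries. The test was two-sided over the 693 nucleotides whose effective depth reached 1000 reads in every library. SE is the log2 change over the square root of F. The pooled spread had 11.6 prior degrees of freedom. The script was tested on simulated counts. Folds used ViennaRNA 2.7.2 with slope 1.8 and intercept -0.6. Rates are sums of mutations over sums of effective depth, in percent. No molecular identifiers mark the PCR reads, so depth speaks for counting error only. 5S rRNA was not used here.

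Members, lists and limits were chosen with earlier results of these data known. Named nucleotides are the 15 highest by mean normalised reactivity among those called higher with NAI, up to 10 called lower, the 10 highest and up to 5 lowest in DC over DMSO, the 8 highest and 8 lowest in NAI over DC, every protected or flexible run, helices of at least 4 pairs, A148 and G239. Nucleotides in the loops, neighbours of named ones, the repeat copies and those around the depth steps were chosen after their values were seen. Alternatives were TMM, DESeq2 1.42.0, limma 3.58.1, other depth and count minimums, other limits, run lengths and fold settings, a replicate block, each library left out, the outer depth and the region without the 40 nucleotides beside the steps.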

Additional observations from a re-analysis of the deposited data

How the results depend on the processing

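Counts of calls were within 1.5 times the reported ones under most alternatives. TMM scaling gave 45 higher and 79 lower for NAI over DMSO and 50 higher and 39 lower for DC over DMSO, since it removes a shift shared by most nucleotides. The count lower in DC was 9 with only the 2 groups compared, 2 with DESeq2, 2 with limma and 2 without the 40 nucleotides beside the depth steps. The count lower with NAI was 3 with the outer depth and 0 without these nucleotides, where fewer nucleotides of the region remain. Leaving out 1 library in turn gave 73 to 91 higher and 2 to 10 lower for NAI over DMSO, 108 to 143 and 1 to 9 for DC over DMSO, and 33 to 47 and 52 to 73 for NAI over DC. A replicate block, tried because titles share replicate numbers, gave 94 and 6 for NAI over DMSO, 5 lower for DC over DMSO and 47 and 75 for NAI over DC. Same-numbered libraries did not deviate together in every pair of conditions (correlations 0.0047, -0.058 and 0.331), so the numbers were not taken to pair them.

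The rate ratio of NAI to DMSO was 1.15 as the median of nucleotide ratios, 1.28 with A148 and G239 and 1.35 without the 40 nucleotides, and 1.30 with either replicate left out. That of DC to DMSO was 1.32, 1.138 and 1.33 in the same order, and 1.31 with either replicate left out. The median normalised reactivity was 0.139 to 0.194 over the replicates. Protected runs numbered 7 at 6 nucleotides or more, 1 with the outer depth and 2 to 5 with a replicate left out. Flexible runs numbered 4 at a limit of 0.3, 1 at 4 nucleotides or more and 3 to 6 with a replicate left out. The paired share of the fold was 67.0% with the steeper slope, 74.1% from the sequence alone, 67.0% with the region folded alone and 67.0% to 70.3% with a replicate left out. Among named nucleotides the direction turned at A148 (-0.29, NAI over DMSO) and G239 (-0.092, DC over DMSO) under TMM scaling, and at A223 (0.10) and U221 (0.12) in DC over DMSO with the outer depth. The causes of the other changes were not tested.

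The lowest effective depth in the region was 46635 reads, a number that speaks for counting error only, since no molecular identifiers mark the PCR reads. The unstated positions of the PCR primers limit what 212 to 231 and 252 to 271 can show, and with 2 libraries per condition the spread is poorly known.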

Other observations

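The 8-nucleotide repeat augggacc lies at A251 to C258 and A259 to C266, mostly inside the stretch beside the fall in depth. Its first 2 positions, A251 and U252, had normalised reactivities of 0.55 and 0.41 and of 0.49 and 0.27, and the same letters at A259 and U260 had -0.13 and -0.34 and 0.30 and -0.01. A251 lies outside the stretch and A259 inside it. With the outer depth, A259 had -0.05 and -0.14 and U260 had 0.56 and 0.38. At the seventh position, C257 had -0.33 and -0.37 as deposited and -0.38 and -0.32 with the outer depth, where C265 had -0.07 and -0.25 and then 0.02 and -0.07. The DC rate of C257, 1.08% and 1.253%, was above that of C265, 0.268% and 0.286%, and with the outer depth these were 2.52% and 2.68% against 0.626% and 0.611%.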
